A study of Mus musculus with 4 samples.

Results

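BAFF-R, TACI and BCMA are the 3 receptors through which B cells and plasma cells receive the cytokines BAFF and APRIL. Their genes, Tnfrsf13c (BAFF-R), Tnfrsf13b (TACI) and Tnfrsf17 (BCMA), were taken by symbol from the 32285 genes counted in a single-cell RNA library of mouse splenic B cells, and all 3 were found. The library came from mice in which B cells lacked Il2rb (KO), the beta chain of the interleukin-2 and interleukin-15 receptors, and from control mice, each either unimmunized (day 0) or injected into the peritoneum with sheep red blood cells, a T-dependent antigen, and taken 4 days later (day 4). Every group was C57BL/6NRj and carried a Cre recombinase that acts in the B lineage. The labels write Il2rbfl/fl for control and KO alike, while the hashtag text calls the control Cre, so the hashtags set the genotype here. B cells were isolated magnetically from spleen, and a second library held splenic CD4+ T cells from the same 4 groups. Each group was 1 hashtagged pool of B cells with no replicate, so no difference between groups could be tested and every interval below is a 95% interval of counting error only. The sources used here give neither the number of mice in a pool nor their age. Values by pool are given throughout in the order unimmunized control, unimmunized KO, immunized control, immunized KO, called the 4 pools.

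BAFF-R binds BAFF alone and is the receptor on which the survival of naive follicular and marginal zone B cells depends. TACI binds BAFF and APRIL, limits B cell numbers and takes part in antibody responses to T-independent antigens. BCMA appears as B cells become plasma cells, binds APRIL most tightly and supports long-lived plasma cells.

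The 3 genes lie on different chromosomes in GENCODE vM21 (GRCm38): Tnfrsf13c (ENSMUSG00000068105) at chr15:82221743-82224369 on the minus strand, Tnfrsf13b (ENSMUSG00000010142) at chr11:61126755-61149372 on the plus strand and Tnfrsf17 (ENSMUSG00000022496) at chr16:11313812-11320074 on the plus strand. Their promoters are shown because the genes, whose products share ligands, had different patterns across B cell subsets. All 3 had an entry among the RefSeq promoters of GRCm38.p6, and the 250 bases before each start are given 5′ to 3′ on the gene's strand, for Tnfrsf13c chr15:82224381-82224630, for Tnfrsf13b chr11:61126505-61126754 and for Tnfrsf17 chr16:11313559-11313808. Capitals mark matches on either strand to TATAAA (the letters of a TATA box) or to GGGNNNNNCC (a loose kappaB site).
Tnfrsf13c: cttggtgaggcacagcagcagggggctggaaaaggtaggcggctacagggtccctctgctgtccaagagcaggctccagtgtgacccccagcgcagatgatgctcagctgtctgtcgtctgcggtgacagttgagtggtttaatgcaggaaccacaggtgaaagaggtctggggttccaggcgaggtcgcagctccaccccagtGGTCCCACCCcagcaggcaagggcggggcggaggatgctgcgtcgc
Tnfrsf13b: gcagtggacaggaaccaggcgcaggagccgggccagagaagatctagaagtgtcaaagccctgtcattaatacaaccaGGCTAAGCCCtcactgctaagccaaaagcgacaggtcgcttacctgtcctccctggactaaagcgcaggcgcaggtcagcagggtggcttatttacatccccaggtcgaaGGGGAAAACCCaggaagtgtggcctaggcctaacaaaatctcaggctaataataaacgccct
Tnfrsf17: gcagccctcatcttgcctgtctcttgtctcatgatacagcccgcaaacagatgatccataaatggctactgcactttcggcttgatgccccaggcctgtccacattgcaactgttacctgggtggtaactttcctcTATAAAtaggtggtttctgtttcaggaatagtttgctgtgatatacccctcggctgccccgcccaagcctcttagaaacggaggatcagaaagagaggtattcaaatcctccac
TATAAA was found before Tnfrsf17 alone of the 3, at 114 to 109 bases before the start, and is in 12.3% of the 32536 distinct RefSeq promoter windows of this length. The kappaB pattern was found 46 to 37 bases before the start of Tnfrsf13c, and 172 to 163 and, in overlapping copies, 62 to 52 bases before that of Tnfrsf13b, against 46.0% of all windows with a match. The upstream window of Tnfrsf13c held 63.2% G or C, that of Tnfrsf13b 54.0% and that of Tnfrsf17 49.2%, against a median of 52.4%. CANNTG (an E-box, in 66.2% of windows) matched before Tnfrsf13c and Tnfrsf17 and not before Tnfrsf13b, as did GGGCGG (a GC box, in 33.0%). GGAANNGAAA (an Ets and Irf composite, in 2.31%), CCAAT (33.8%) and CCACG (the core of an unfolded protein response element, 28.6%) were searched on both strands as well and matched in none of the 3.

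Of 6339 barcodes in the B library 5477 passed the filters with 1 hashtag, of which the 4 pools held 1126, 1019, 1393 and 1939. The pools summed to between 6031278 and 14512361 unique molecular identifiers (UMIs, 1 per captured transcript molecule). A gene's level is given as CPM, its UMIs per 1000000 UMIs of the same cells. B lineage cells numbered 5242 and were divided by marker UMIs into gates of 2274 follicular cells (Fcer2a), 118 transitional, 372 marginal zone, 86 B1, 976 activated (Samsn1 and Cd83), 32 germinal center and 56 plasma cells (Jchain of at least 20 UMIs), with 1328 B cells in none. The activated gate held 22, 15, 353 and 586 cells of the 4 pools. Many cells met a gate's rule with nothing to spare, among them 587 follicular, 174 marginal zone, 84 transitional, 48 B1 and 3 germinal center cells. Of the listed germinal center markers only Bcl6 and Neil1 were not part of that gate's rule, and both were above the median of the other gates there, as were the 11 plasma markers other than Jchain in the plasma gate. Cells with markers of other lineages were removed before every gate but the plasma gate, so low levels of those markers in the other gates follow in part from the rule. The T cell, neutrophil and NK marker lists summed to 1.76, 0 and 0 CPM in the plasma gate and to 0 in the germinal center gate, and the monocyte or macrophage list to 12.9 and 7.78. The erythroid list summed to 85.6 CPM in the germinal center gate, all of it Hbb-bt with the other 3 genes at 0, against 9.30 in follicular and 2.35 in plasma cells. The dendritic list summed to 153 CPM in the plasma gate, of which Bst2 gave 142 and Flt3 11.1 with the other 4 genes at 0, against 68.7 in follicular and 56.4 in germinal center cells. The part of these transcripts in the results was not tested. The plasma gate was mixed, however: 18 of its 56 cells had 20 to 99 Jchain UMIs, and those carried Ms4a1, which encodes the B cell surface protein CD20, at 896 CPM, but no UMI of Sdc1, the plasma cell surface marker CD138. Il2rb, the deleted gene, gave 0, 0, 9 and 4 UMIs in B lineage cells of the 4 pools, too few to check the genotype. The B and T libraries shared 84 barcodes, 1.33% of those of the B library.

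Tnfrsf13c was found throughout the B cell gates and was lowest in plasma cells. Its level in follicular cells was 304, 290.0, 248 and 251 CPM in the 4 pools, and 271 (262 to 280) over all of them. In marginal zone cells it was 224, 185, 174 and 163 CPM, below the follicular level of the same pool in every case. Their summed level of 181 was 0.669 times (0.616 to 0.727) the follicular level. B1 cells, the innate-like subset, had 149, 269, 179.8 and 168 CPM and a summed level of 189, or 0.699 times (0.601 to 0.809) the follicular one. Activated cells stood at 227 CPM, 0.838 times (0.793 to 0.886) the follicular level, and were below it in all 4 pools. By pool the ratios were 0.879 (0.655 to 1.16), 0.716 (0.489 to 1.01), 0.958 (0.864 to 1.06) and 0.874 (0.802 to 0.953). Only the interval of KO day 4 lay below 1. The summed ratio also mixes days, as 353 and 586 of the 976 activated cells were of the day 4 pools.
At the top of the order stood germinal center cells with 321 CPM, transitional cells with 297 and B cells of no gate with 275. The intervals of the ratios between these neighbours, and between the last of them and follicular cells, all included 1, so neighbours among the highest 4 were not resolved. B1 and marginal zone cells were not resolved from each other either, with a ratio of 1.04 (0.884 to 1.23). Follicular over activated cells, activated over B1 cells and marginal zone over plasma cells each had an interval above 1.

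The germinal center value of Tnfrsf13c rested on few cells. No control day 0 cell was in the gate, and the remaining pools had 383, 211 and 395 CPM from 8, 13 and 11 cells. The control day 4 value lay below the follicular level of its pool and the other two above theirs. The summed ratio to follicular cells was 1.19 (1.01 to 1.39). It fell on the other side of 1 when cells were classed by clustering instead of by gates, at 0.690 (0.623 to 0.762). Gated after thinning to equal depth, with plasma-gate cells left out, it was 1.95, on at most 21 germinal center cells. The germinal center cluster held 105 cells, of which 31 were in the germinal center gate, at 319 CPM, 26 in the plasma gate, at 124, and 48 in neither, at 179. Transitional cells moved as well, from 1.09 (0.948 to 1.26) times the follicular level by gate to 1.61 (1.49 to 1.74) times by cluster.

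**Figure D1:**
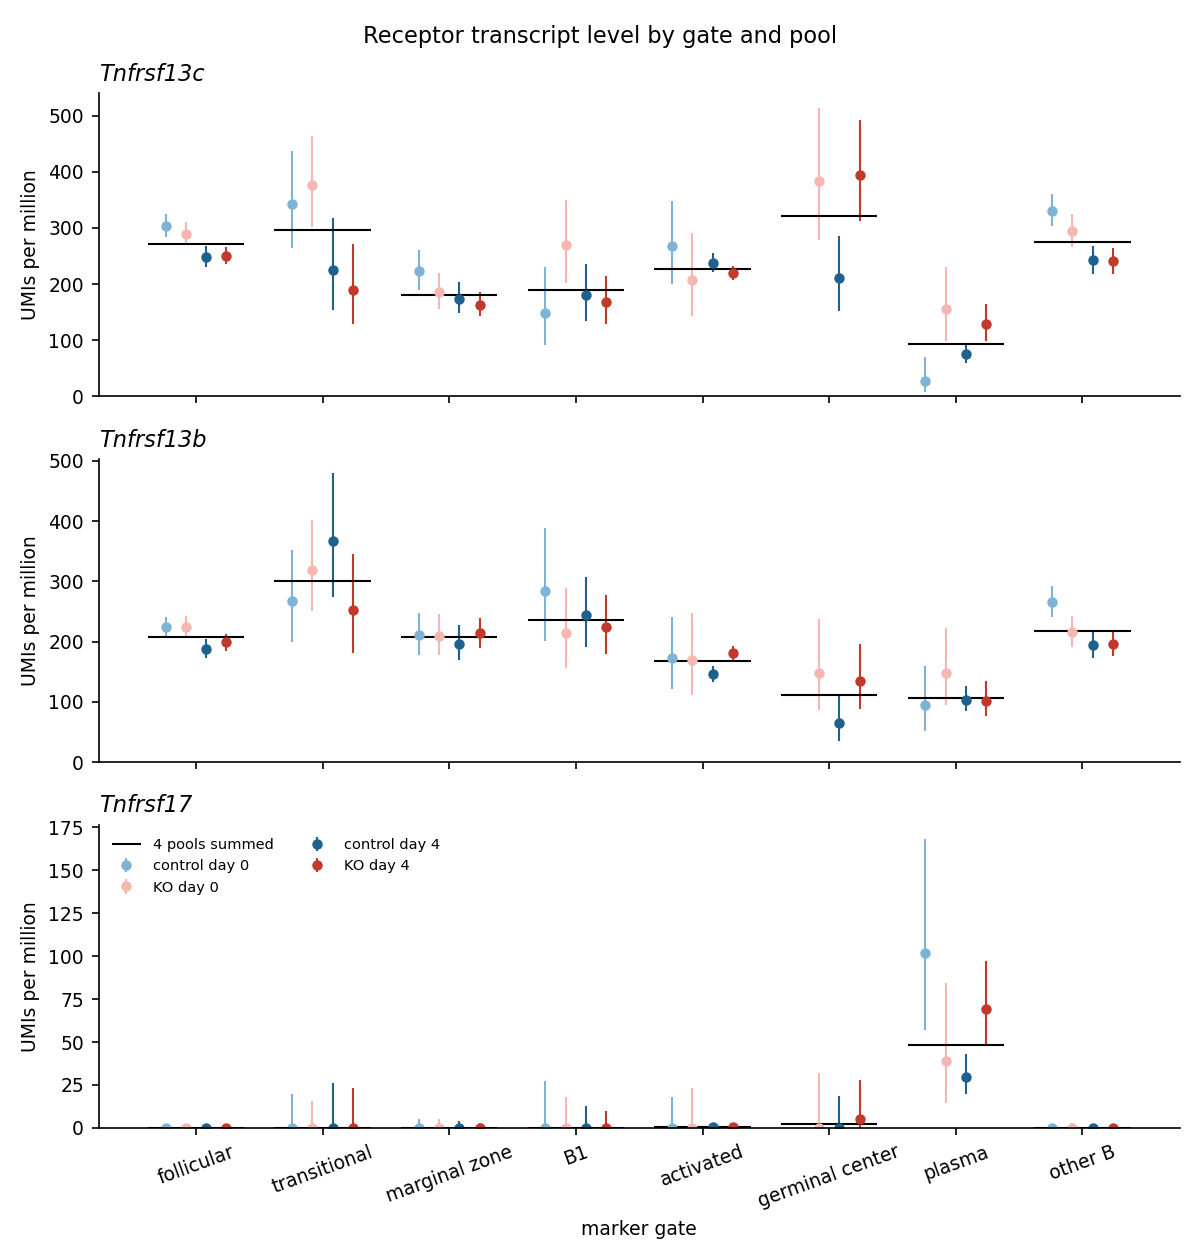
Level in CPM (vertical axis) of each receptor gene in each marker gate (horizontal axis) for the 4 pools, with exact Poisson 95% intervals, and for the pools summed (black lines); "other B" are B cells of no gate. Tnfrsf13c and Tnfrsf13b were found in every gate, with Tnfrsf13c lowest in the plasma gate at 93.8, while Tnfrsf17 reached 48.1 in the plasma gate and was at or near 0 elsewhere.

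Tnfrsf13b had another order. Summed over the pools it was highest in transitional cells, the recent arrivals from bone marrow. By pool they had 268, 319, 366 and 253 CPM, above the follicular levels of 224, 225, 189 and 199. In unimmunized controls B1 cells stood above transitional cells, at 283 CPM. Summed, transitional cells stood at 301 CPM against 208 in follicular cells, a ratio of 1.45 (1.25 to 1.66). Marginal zone cells had 208 CPM as well and a ratio of 1.002 (0.923 to 1.09) to follicular cells, unlike for Tnfrsf13c. B1 cells stood at 236 CPM, with a ratio of 1.14 (0.991 to 1.30). Activated cells had 168 CPM, 0.807 times (0.756 to 0.861) the follicular level, and lay below it in all 4 pools. By pool the ratios were 0.774 (0.534 to 1.09), 0.756 (0.494 to 1.11), 0.774 (0.683 to 0.876) and 0.912 (0.828 to 1.004). Only the interval of control day 4 lay below 1.
The lowest levels of Tnfrsf13b were in the plasma gate, at 107 CPM, and in the germinal center gate, at 111, and these 2 gates were not resolved from each other (ratio 1.04, 0.758 to 1.41). Immunoglobulin genes took 24.6% of the UMIs of the plasma gate and 1.27% of those of the germinal center gate. Without them in the total, Tnfrsf13b was at 142 and 112 CPM, with the germinal center gate alone lowest. In the germinal center gate Tnfrsf13b was 148, 65.4 and 135 CPM in the 3 pools with such cells, below the follicular level of each pool. The summed ratio to follicular cells was 0.534 (0.403 to 0.694) by gate and 0.554 (0.490 to 0.626) by cluster. B1 over ungated, ungated over marginal zone and marginal zone over follicular cells had ratios whose intervals included 1. Transitional over B1 cells (1.27, 1.05 to 1.54), follicular over activated cells (1.24, 1.16 to 1.32) and activated over germinal center cells (1.51, 1.16 to 2.01) had intervals above 1.

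A ratio of at least 1.5 or at most 0.667, with at least 20 UMIs in both sums, was taken as a difference worth counting. Of the receptor genes with enough UMIs, none of 2 passed it in transitional over follicular cells, where 15.8% of all genes with enough UMIs did, in marginal zone cells (14.2%), in B1 cells (15.6%) or in activated cells (9.54%). In germinal center cells 1 of 2, Tnfrsf13b, passed, against 45.1% of genes. In the plasma gate both did, against 55.9% of genes, so a difference of this size was usual there. Tnfrsf13c in marginal zone cells missed the threshold narrowly.

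Because both genes were counted in the same cells, the number of Tnfrsf13c UMIs per Tnfrsf13b UMI does not use the total UMIs of a gate, which immunoglobulin transcripts can swell. It can be compared between gates, but not read as a ratio of proteins or of transcript levels. It was 1.30 (1.24 to 1.37) in follicular cells and varied little among their 4 pools, from 1.26 in KO day 4 to 1.36 in control day 0. The germinal center gate was at 2.89 (2.13 to 3.98), and the 3 pools with such cells gave 2.59, 3.23 and 2.93. This height did not hold for the 105 cells of the germinal center cluster, at 1.54 (1.33 to 1.78), nor for the 48 of them in neither the germinal center nor the plasma gate, at 1.23 (0.984 to 1.54). The 21 germinal center cells gated after thinning, from which cells of the full-depth plasma gate were not left out, were at 3.78 (2.60 to 5.62). Marginal zone cells were at 0.872 (0.786 to 0.968), B1 cells at 0.802 (0.659 to 0.974) and transitional cells at 0.986 (0.812 to 1.20). Transitional cells were at 1.28 and 1.18 in the day 0 pools and at 0.615 and 0.750 in the day 4 pools, on 30 to 87 UMIs of each gene. Activated control cells of day 4 had a number of 1.63 (1.45 to 1.83) and activated KO cells one of 1.21 (1.11 to 1.32). By clusters the activated cells of day 4 gave 1.71 in controls and 1.22 in KO mice, but the order turned among activated cells gated after thinning, with 1.30 (0.762 to 2.23) in 23 control and 2.0 (1.27 to 3.21) in 34 KO cells.

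**Figure D2:**
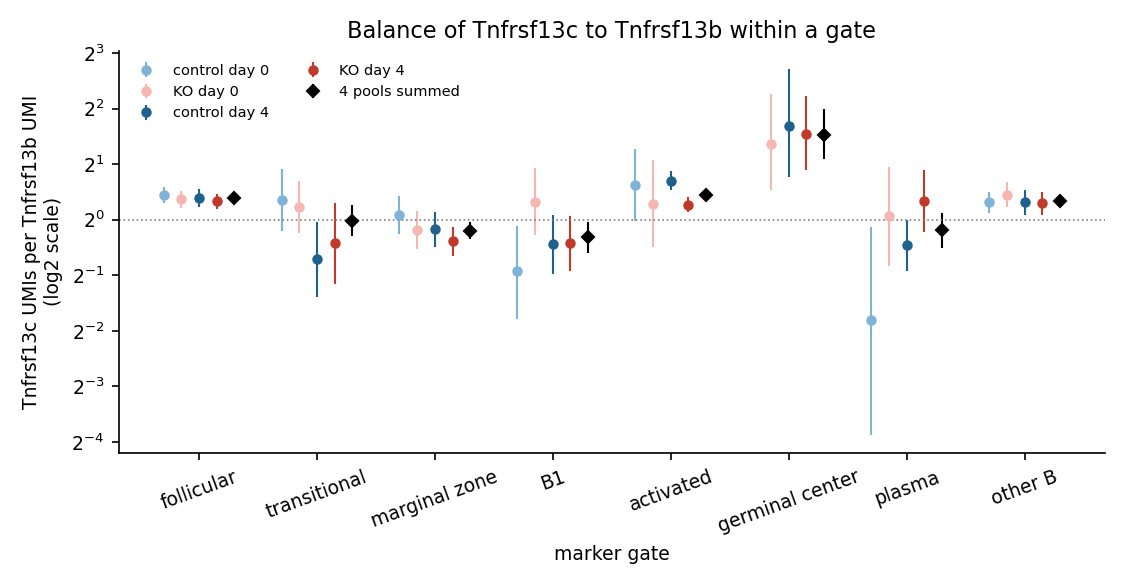
Tnfrsf13c UMIs per Tnfrsf13b UMI (vertical axis, log2 scale) within each marker gate for each pool and for the 4 pools summed, with exact binomial 95% intervals. The germinal center gate lies highest, at 2.89 summed, and marginal zone and B1 cells lie below 1 when summed.

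By gate, Tnfrsf17 was found in plasma cells and hardly elsewhere. Of its 86 UMIs in B lineage cells 82 (95.3%) were in the plasma gate, in 22 of 56 cells. No UMI was found in 2274 follicular cells, which at a floor of 3 counts allows a share of up to 0.132% of cells with a UMI, nor in the transitional, marginal zone or B1 gates or in B cells of no gate. The 4 remaining UMIs were single UMIs in 3 activated cells and 1 germinal center cell, all of day 4. The plasma gate had 48.1 CPM (38.2 to 59.7), 199.98-fold the follicular level if that is set at a floor of 3 counts over the gate. This is a point value, and the exact interval of the ratio to the 0 UMIs found began at 159-fold. By clusters Tnfrsf17 was less confined. The germinal center cluster held 40 Tnfrsf17 UMIs (15.5 CPM), 38 of them in 26 cells of the plasma gate. Of the plasma-gate cells 28 were in the plasma cluster.
By pool the plasma gate had 102, 38.7, 29.5 and 69.4 CPM, from 15, 6, 27 and 34 UMIs. Each pool's cells ranged from 0 UMIs to a highest cell of 6, 3, 6 and 20. A pair of KO day 4 cells with 20 and 10 UMIs held 36.6% of all Tnfrsf17 UMIs in the gate. Every positive cell of the gate had at least 286 Jchain UMIs, and the 18 cells with 20 to 99 Jchain UMIs had none.

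The 3 receptors differed along the scale of Jchain, the joining chain of secreted IgM and IgA, on which plasma cells were chosen. Just outside the gate, 14 B cells with 10 to 19 Jchain UMIs had 272, 134 and 0 CPM of Tnfrsf13c, Tnfrsf13b and Tnfrsf17, and just inside it 8 cells with 20 to 29 had 258, 59.1 and 0. The 26 cells with at least 100 and under 1000 Jchain UMIs had 68.1, 118 and 53.8, and the 12 cells with 1000 or more had 35.9, 111 and 98.7. Immunoglobulin genes took 24.9% and 55.3% of the UMIs of the latter groups and 1.87% of those of cells with 20 to 99. Cells with at least 100 Jchain UMIs had 0.319 times (0.230 to 0.440) the Tnfrsf13c of the cells with 20 to 99, while for Tnfrsf13b the ratio was 1.40 (0.976 to 2.06).
Against follicular cells, Tnfrsf13c was 0.346 times as high (0.294 to 0.406) in the whole plasma gate and 0.219 times (0.172 to 0.276) in its 38 cells with at least 100 Jchain UMIs, a difference of over 1.5 times that came with leaving out the 18 cells described above. By clusters, with 28 cells in the plasma cluster, the plasma cell ratio of Tnfrsf13c was 0.154 (0.1001 to 0.226). By pool Tnfrsf13c was at 27.2, 155, 75.5 and 129 CPM in the whole gate, and Tnfrsf13b at 95.1, 149, 104 and 102. Tnfrsf13b was 0.514 times as high (0.440 to 0.597) in the whole gate and 0.557 times (0.468 to 0.659) in the 38 cells. With immunoglobulin genes in the total, both passed the threshold in the 38 cells too, as did 62.1% of genes. Without immunoglobulin genes in the total, the whole-gate ratios were 0.452 for Tnfrsf13c and 0.670 for Tnfrsf13b, the latter no longer past the threshold. Immunoglobulin genes took 33.1% of the UMIs of the 38 cells and 1.65% of those of follicular cells. Ratios of the 38 cells without these genes were not computed, so the part of the larger total in their lower levels was not tested.

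**Figure D3:**
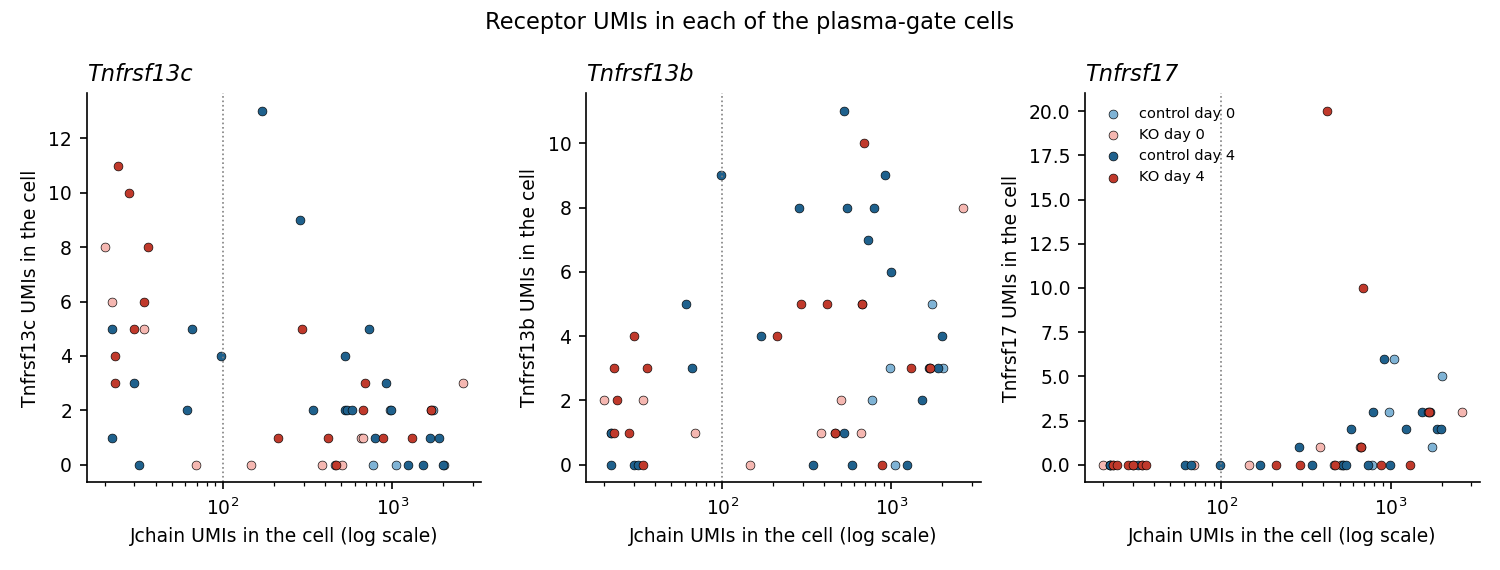
UMIs of Tnfrsf13c, Tnfrsf13b and Tnfrsf17 (vertical axes) against Jchain UMIs (horizontal axis, log scale) in each of the 56 cells of the plasma gate, coloured by pool; the dotted line marks 100 Jchain UMIs. All 22 cells with a Tnfrsf17 UMI lie at 286 Jchain UMIs or above, and 86 of the 160 Tnfrsf13c UMIs lie in the 18 cells left of the dotted line.

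Single cells were also counted by the receptors of which they held a UMI. Whether receptors shared cells more often than their separate shares would give was not tested. A Tnfrsf13c UMI was found in 68.4% of follicular cells and a Tnfrsf13b UMI in 62.6%, and both in 44.3%. With each cell thinned to 1500 UMIs, which left out 3 of these cells, the shares were 32.5% (30.5 to 34.4) for Tnfrsf13c, 26.0% (24.2 to 27.9) for Tnfrsf13b and 8.67% for both. For comparison, T lineage cells of the T library, thinned alike, had a Tnfrsf13c UMI in 0.0272% and a Tnfrsf13b UMI in 4.64%, with a median depth of 5164.5 UMIs against 5119 in follicular cells. Thinned marginal zone cells had Tnfrsf13c in 24.5% (20.2 to 29.2), below the follicular interval, and Tnfrsf13b in 28.2% (23.7 to 33.1), an interval that overlaps the follicular one.
In the plasma gate Tnfrsf17 was in 39.3% (26.5 to 53.2) of cells at full depth, a median of 26864.5 UMIs, and in 12.5% (5.18 to 24.1) after thinning. Of the 22 plasma-gate cells with Tnfrsf17, 19 also held a Tnfrsf13b UMI and 16 a Tnfrsf13c UMI. In the whole gate 46 of 56 cells held a Tnfrsf13b UMI and 43 a Tnfrsf13c UMI. After thinning 7 cells of the gate held Tnfrsf17, of which 2 held Tnfrsf13b and 0 Tnfrsf13c.

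Over all B lineage cells both widely found receptors stood at lower levels after immunization, by less than the threshold. Over all B lineage cells Tnfrsf13c stood at 291 CPM on day 0 and 219 on day 4 in controls, a ratio of 0.752 (0.706 to 0.802), and at 276 and 223 in KO mice, a ratio of 0.808 (0.760 to 0.860). Tnfrsf13b went from 231 to 171 CPM in controls, a ratio of 0.738 (0.686 to 0.793), and from 219 to 190.2 in KO mice, a ratio of 0.869 (0.811 to 0.930). None of 2 receptor genes with enough UMIs passed the threshold of 1.5-fold in either genotype, where 10.5% of genes did in controls and 5.75% in KO mice. All 4 ratios had intervals below 1, and the median gene stood at a log2 ratio of -0.11 in controls and -0.04 in KO mice.
The activated gate, in which both levels lay below the follicular ones, held 22 control and 15 KO cells on day 0 against 353 and 586 on day 4, and ratios below 1 were also found within follicular cells. In follicular cells Tnfrsf13c on day 4 was 0.817 times (0.740 to 0.903) its day 0 level in controls and 0.865 times (0.787 to 0.951) in KO mice, and Tnfrsf13b was 0.843 times (0.751 to 0.947) and 0.885 times (0.796 to 0.986), with 6.37% and 4.83% of genes past the threshold and neither receptor gene among them. In transitional cells Tnfrsf13c went from 343 to 225 CPM in controls, a ratio of 0.658 (0.417 to 1.02), and from 376 to 189.97 in KO mice, a ratio of 0.506 (0.322 to 0.774), on 30 to 87 UMIs a pool. Both passed the threshold, as did 11.8% and 11.0% of genes in those comparisons. In B1 cells of KO mice Tnfrsf13c passed it too, at 0.623 (0.426 to 0.913), as did 16.6% of genes, while B1 cells of controls were at 1.21 (0.709 to 2.13). Tnfrsf13b in transitional cells had ratios of 1.37 (0.911 to 2.06) and 0.793 (0.526 to 1.18), both of which included 1. In activated cells, no day ratio of either gene excluded 1.

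Between KO and control neither of these receptors passed the threshold over all B lineage cells, while Tnfrsf13c did within 3 of the smaller gates. Over B lineage cells KO stood to control as 0.949 (0.886 to 1.02) for Tnfrsf13c and 0.946 (0.875 to 1.02) for Tnfrsf13b on day 0. On day 4 the ratios were 1.02 (0.965 to 1.08) and 1.11 (1.05 to 1.19). None of the receptor genes with enough UMIs passed the threshold over B lineage cells on either day, where 3.71% of genes did on day 0 and 3.68% on day 4. In activated cells of day 4 Tnfrsf13b stood at 146 CPM in control and 181 in KO cells, a ratio of 1.24 (1.11 to 1.39) on 353 and 586 cells. In those cells Tnfrsf13c was 238 in control and 219 in KO cells, with a ratio of 0.921 (0.839 to 1.01). Gated after thinning, which left 57 activated cells over all pools, these ratios lay on the other side of 1, at 0.737 and 1.14. In follicular cells of day 4, KO stood to control as 1.05 (0.945 to 1.18) for Tnfrsf13b and 1.01 (0.916 to 1.11) for Tnfrsf13c.
In the germinal center gate of day 4, with 13 control and 11 KO cells, KO over control was 1.87 (1.27 to 2.79) for Tnfrsf13c and 2.06 (1.03 to 4.36) for Tnfrsf13b, the latter on 27 and 13 UMIs and so not counted. The former passed the threshold, as did 13.7% of genes. Both ratios come from 1 pool against 1 pool of under 15 cells each, and spread between mice was not measured. In the plasma gate of day 4 Tnfrsf13c was 1.70 times (1.19 to 2.43) as high in KO as in control cells, past the threshold as were 15.2% of genes, but among cells with at least 100 Jchain UMIs it was 0.632 times (0.336 to 1.13) as high, and cells with 20 to 99 made up 7 of 16 KO and 7 of 24 control cells. In B1 cells of day 0 Tnfrsf13c was 1.80 times (1.06 to 3.18) as high in KO as in control cells, on 55 and 20 UMIs, past the threshold as were 18.8% of genes.

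**Figure D4:**
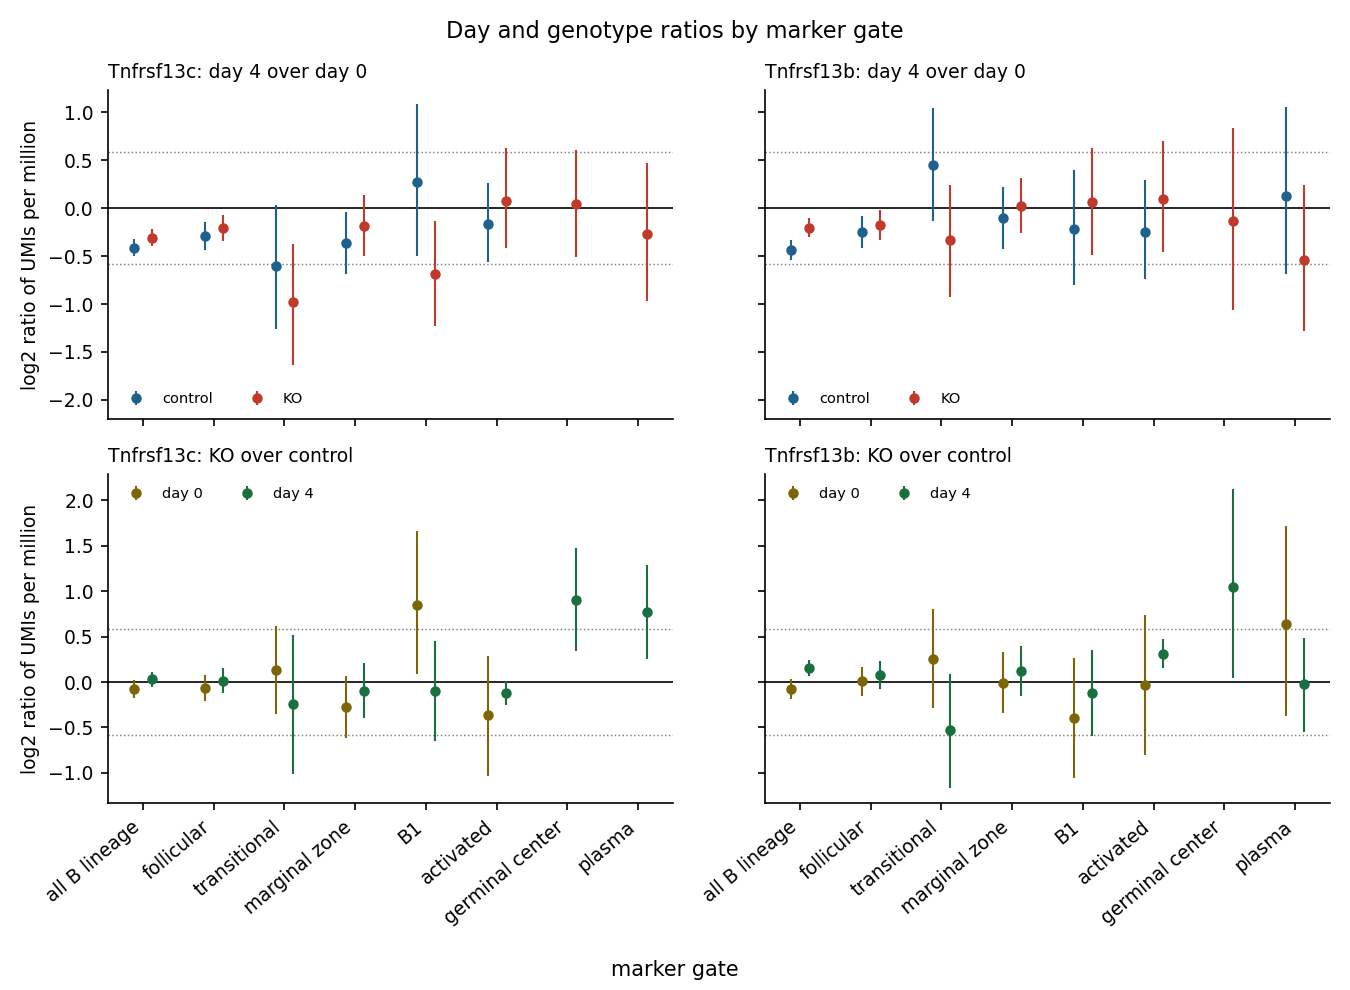
Log2 ratios of levels in CPM (vertical axes) of Tnfrsf13c (left) and Tnfrsf13b (right) by marker gate, day 4 over day 0 above and KO over control below, with conditional exact binomial 95% intervals; dotted lines mark 1.5-fold, and ratios with under 5 UMIs in a sum are not drawn. Over all B lineage cells the day ratios lie below 0 for both genes and both genotypes, and the genotype ratios lie near 0.

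Tnfrsf17 differed between pools of plasma-gate cells by more than counting error in part. Day 4 over day 0 was 0.290 (0.149 to 0.586) in controls and 1.79 (0.744 to 5.22) in KO mice. KO over control was 0.380 (0.121 to 1.04) on day 0 and 2.35 (1.38 to 4.05) on day 4. The last value was 1.25 (0.588 to 2.58) without the top cell of each pool, 1.20 as a mean over cells, and 0.578 (0.110 to 1.95) by clusters. By clusters the day ratio was 0.620 (0.302 to 1.30) in controls and turned to 0.535 (0.0866 to 2.50) in KO mice. The plasma cluster was a smaller set of 28 cells. Another 26 plasma-gate cells, with 38 Tnfrsf17 UMIs, were in the germinal center cluster. The cells with 20 to 99 Jchain UMIs, which held no Tnfrsf17, made up 0, 4, 7 and 7 cells of the pools. Among cells with at least 100 Jchain UMIs KO over control was 0.670 (0.213 to 1.83) on day 0 and 2.44 (1.43 to 4.20) on day 4, and day 4 over day 0 was 0.398 (0.204 to 0.805) in controls and 1.45 (0.601 to 4.22) in KO mice.

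The ligands were hardly found in B cells. Tnfsf13b, which encodes BAFF, gave 14 UMIs in all B lineage cells, and Tnfsf13, which encodes APRIL, gave 1. In the 105 cells of the B library with at least 3 UMIs of the myeloid gene Lyz2, Tnfsf13 was at 115 CPM (98.3 to 135) and Tnfsf13b at 16.4 (10.4 to 24.6). Tnfsf13 overlaps the antisense gene Tnfsf13os in the annotation, so its level is uncertain.

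A list of 39 genes of the pathway (ligands, TRAF and cIAP adaptors, the alternative NF-kappaB route, PI3K signaling, receptor-shedding proteases, and survival and target genes) was described against follicular cells and between groups. In the plasma gate 31 had enough UMIs, 2 were higher and 17 lower than in follicular cells, where 21.3% of all genes were higher and 34.6% lower, with a median log2 ratio of -1.07 against -0.25 over all genes. Sdc1, which binds APRIL through heparan sulfate, was 25.6 times as high and Bcl2l11, the pro-apoptotic factor Bim, 1.55 times. The lowest of the 31 were Fcer2a, which defined the follicular gate, at 0.0236 times, Cr2 at 0.0514 times and Bcl2, the survival factor, at 0.155 times. In the 38 cells with at least 100 Jchain UMIs 2 of 20 were higher, Sdc1 and Pim2, and 12 lower, Birc3 at 0.165 times and Bcl2 at 0.174 times among them, where 22.4% of all genes were higher and 39.7% lower, with a median of -0.68 against -0.32. With 20 UMIs over both sums together instead, the medians over all genes were -0.55 in the plasma gate and -0.88 in the 38 cells. The shares of all genes lower were then 48.8% and 59.7%, and those higher 17.2% and 14.4%. The pathway genes were not counted under that rule.
In germinal center cells 4 of 23 genes were higher and 8 lower, with a median log2 ratio of -0.15. Of all genes with enough UMIs in both sums 36.5% were higher and 8.61% lower, with a median of 0.36. That rule leaves out genes with few UMIs in the small germinal center gate. With 20 UMIs over both sums together instead, 24.4% of all genes were higher and 28.6% lower, with a median of -0.035. The pathway genes were not counted under that second rule. Of these 23, those with enough UMIs, the highest was Traf1, a TRAF adaptor, at 3.28 times (2.32 to 4.54) the follicular level. Akt1 at 2.65 times and Bcl2a1b, a Bcl-2 relative, at 2.07 times came next. The lowest of the 23 were Fcer2a at 0.218 times, Cr2 at 0.373 times and Icosl at 0.456 times. Bcl2, with 3 UMIs in germinal center cells and so not counted, was at 5.84 CPM there against 106 in follicular cells. In activated cells 3 of 35 were higher, namely Bcl2a1d at 2.24 times (1.96 to 2.57), Bcl2a1b at 2.02 times and Traf1 at 1.62 times, and 2 were lower, Bcl2l11 at 0.657 times and the kinase gene Syk at 0.659 times, with a median of -0.08 against -0.03 over all genes. Of all genes 4.45% were higher there and 5.09% lower. In marginal zone cells 4 of 35 were higher, Cr2, which helped define the gate, at 2.56 times, Bcl2a1d at 1.92 times and Bcl2a1b at 1.87 times among them, and 3 lower, Fcer2a at 0.268 times, the NF-kappaB inhibitor gene Tnfaip3 at 0.619 times and Icosl at 0.622 times, with a median of -0.15 against -0.05. Of all genes 7.34% were higher in marginal zone cells and 6.81% lower, so the share of pathway genes that were lower was near that of all genes.
B1 cells had 2 of 33 higher, Traf1 at 2.12 times (1.55 to 2.84) and Bcl2a1d at 1.56 times, and 5 lower, the lowest of them Fcer2a at 0.178 times, Icosl at 0.265 times and Cr2 at 0.499 times, with a median of -0.07 against -0.02, where 9.41% of all genes were higher and 6.16% lower. Of 27 genes with enough UMIs, transitional cells had 4 higher and 4 lower. The highest were the kinase gene Pim2 at 2.25 times (1.63 to 3.03), Akt1 at 1.58 times and the survival gene Mcl1 at 1.53 times. The lowest of the 27 were Icosl at 0.403 times, Cr2 at 0.435 times and Fcer2a at 0.438 times. The median of the pathway genes was 0.25 against 0.19. Of all genes 13.9% were higher in transitional cells, about the share of the pathway genes, and 1.91% lower. The Bcl2a1 genes are near-identical copies, so reads could be split among them and each value is uncertain.

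Between days, over B lineage cells, 1 of 36 pathway genes was higher and 1 lower in each genotype, with medians of -0.19 against -0.11 over all genes in controls and -0.10 against -0.04 in KO mice. Of all genes 3.59% were higher and 6.88% lower in controls and 2.22% and 3.53% in KO mice, so such counts were near or under the background. Bcl2a1d was higher in both, by a ratio of 1.71 (1.43 to 2.04) in controls and 1.55 (1.29 to 1.87) in KO mice. Nfkb2 was lower in controls, with 105 CPM on day 0 and 59.3 on day 4, a ratio of 0.566 (0.505 to 0.634). Sdc1 was the lower gene in KO mice, at 0.611 (0.389 to 0.967), and it was also the only pathway gene past the threshold between genotypes, at 0.432 (0.300 to 0.616) for KO over control on day 4, on 51 and 89 UMIs. On day 0 none of 36 passed between genotypes. The medians between genotypes were -0.03 against -0.02 on day 0 and 0.07 against 0.04 on day 4. The plasma gate held 126 of the Sdc1 UMIs, and 24 control and 16 KO cells on day 4. Within follicular cells 1 of 35 pathway genes passed between days in controls, Bcl2a1d at 1.69 (1.23 to 2.35), and none of 35 in KO mice, both under the 6.37% and 4.83% of all genes given above.

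The genes whose levels across the 8 gates ran most like each receptor were found by Pearson's r on log2(CPM + 1), given as a description since the gates share 1 library and differ in depth. For Tnfrsf13c, among 9869 genes, they were Cybc1 (r = 0.991), Dnm2, Cdk9, Pin4 and Mob4. For Tnfrsf13b they were Hs1bp3 (r = 0.994), Anks3, Gm13919, Psmg4 and Cmtr1. For Tnfrsf17 they were Spcs1 (r = 0.997), Sec61g, Kdelr2 and P4hb. Spcs1 and Sec61g encode parts of the signal peptidase and of the protein channel of the endoplasmic reticulum, Kdelr2 a retrieval receptor and P4hb a disulfide isomerase of the secretory pathway. Between the receptors themselves r was 0.41 for Tnfrsf13c with Tnfrsf13b, -0.75 for Tnfrsf13c with Tnfrsf17 and -0.78 for Tnfrsf13b with Tnfrsf17.

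Tnfrsf13b was also found outside the B lineage. In the T library 7370 T lineage cells, chosen by T cell receptor complex genes and without a UMI of Cd79a, Cd79b or Ms4a1, held 1403 Tnfrsf13b UMIs, or 31.1, 29.4, 35.1 and 32.5 CPM by pool. The 4 pools lay close together, and no day or genotype ratio excluded 1. The summed level of 32.7 (31.0 to 34.4) was exceeded 6.36-fold (5.96 to 6.79) by follicular cells. Tnfrsf13c, by contrast, gave 17 UMIs in the same T cells, a level of 0.396 CPM (0.231 to 0.634) that follicular cells exceeded 685-fold (427 to 1177), and Tnfrsf17 gave none. These T cells thus did not hold Tnfrsf13c and Tnfrsf13b in the proportion of 1.30 to 1 found in follicular cells. Leaving out cells with a UMI of Cd79a, Cd79b or Ms4a1 can itself affect that proportion. The source of the Tnfrsf13b UMIs was not tested.
Among T cells, Tnfrsf13b stood at 46.7 CPM (40.3 to 53.8) in 651 cells with a Foxp3 UMI, the regulatory T cell factor, an interval above that of all T lineage cells, which include them. Cells with Cxcr5 or Pdcd1, genes of follicular helper cells, were at 45.0 (35.9 to 55.7). Their median depth was 12013 UMIs against 4998 in Foxp3 cells, and after thinning the shares of cells with a UMI were 4.32% and 7.78%, against 4.64% of all T lineage cells. Cells with the cytotoxic gene Nkg7 were at 23.3 (17.02 to 31.2).
In the B library 78 cells with Lyz2 and no Cd79a UMI had Tnfrsf13b at 76.6 CPM (60.7 to 95.5) and a single Tnfrsf13c UMI. A processed pseudogene, Gm12269, lies inside Tnfrsf13b on the opposite strand. Whether reads from it added to these counts was not tested.

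**Figure D5:**
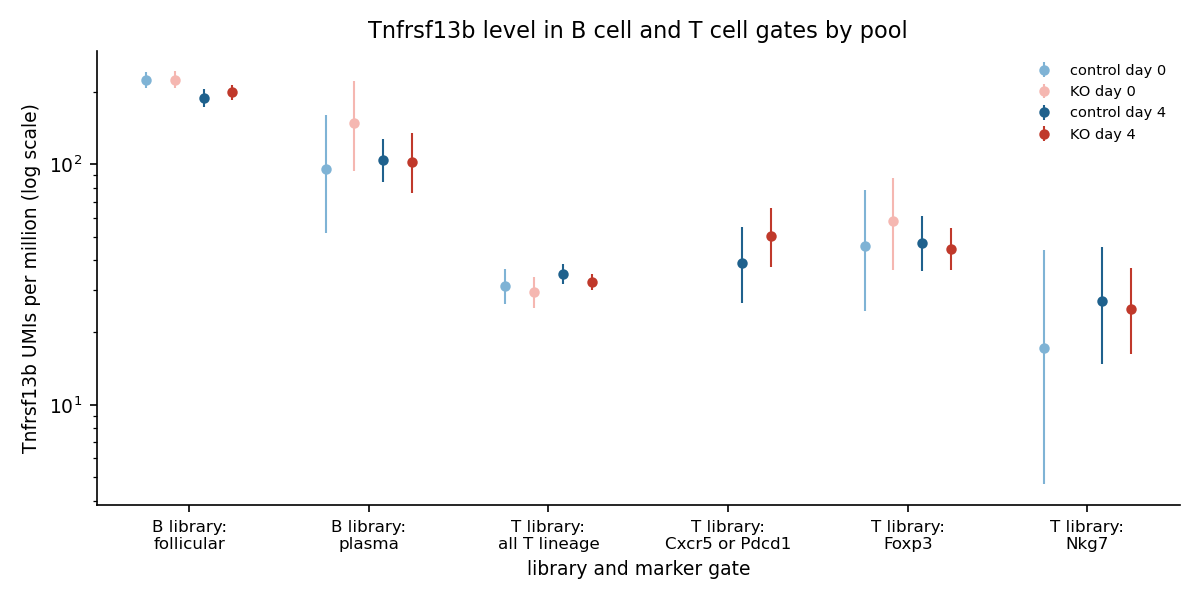
Tnfrsf13b level in CPM (vertical axis, log scale) in follicular and plasma gates of the B library and in T lineage gates of the T library (horizontal axis) for the 4 pools, with exact Poisson 95% intervals; sums of under 3 UMIs are not drawn. All 4 pools of T lineage cells lie between 29.4 and 35.1, below every pool of follicular cells.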

How the data were processed

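The deposited files hold counts of UMIs per gene and cell barcode for the B and T libraries, with 4 hashtag antibody counts, made with Cell Ranger 5.0.0 on mm10 per the submitters' processing notes; the libraries are 5′ tag libraries per the labels, so levels cannot be compared between genes. Barcodes under 200 detected genes or over 10% mitochondrial UMIs were removed, and hashtags were assigned with HTODemux (Seurat 5.3.0, R 4.3.3, positive quantile 0.99). Droplets with several hashtags (568 of the B and 1007 of the T library) were left out as doublets, 173 and 553 with none were left out too, and no doublet caller was run, so doublets within a pool remain. The median kept B-library cell had 5479 UMIs.

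Gates were applied in the order plasma (Jchain of at least 20 UMIs), cells with markers of another lineage or under 5 UMIs of Cd79a, Cd79b and Ms4a1 (both left out of the B lineage), germinal center (3 of 8 marker genes), activated (3 UMIs each of Samsn1 and Cd83), B1 (3 of 8), marginal zone (3 of 7 and 2 Cr2 UMIs), transitional (2 of 6 and Vpreb3) and follicular (2 Fcer2a UMIs). UMIs were summed per gate and pool and expressed per 1000000 UMIs of the same cells (CPM, scipy 1.17.1 and python 3.11.15). Levels have exact Poisson intervals, ratios exact binomial intervals conditional on the sum of both counts, and shares exact Clopper-Pearson intervals. UMIs of 1 pool do not measure the spread between mice, so no p-values are given. On simulated counts the ratio script was checked to recover known changes. A floor is 3 counts over the gate. Clusters were made with scanpy 1.11.5 and leidenalg 0.10.2 without the receptor genes.

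The receptors, gates and gene lists were chosen with earlier results of these data known. The genes named are the receptors in every gate, up to 3 highest and 3 lowest pathway genes past the threshold in each comparison, the ligands, the 5 most alike genes (of those with at least 100 UMIs, immunoglobulin and T cell receptor genes left out) and gate markers. Fcer2a and Cr2 are in the pathway list and also define gates. Barcodes that both libraries share were kept. Some items that these rules select are not reported here.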

Additional observations from a re-analysis of the deposited data

Results flagged for a closer look

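In B1 cells the Tnfrsf13c ratio of day 4 over day 0 lay on opposite sides of 1 in the genotypes, at 1.21 (0.709 to 2.13) in controls and 0.623 (0.426 to 0.913) in KO mice, from 20, 55, 53 and 62 UMIs in the 4 pools. Between genotypes the same UMIs gave KO over control ratios of 1.80 (1.06 to 3.18) on day 0 and 0.932 (0.635 to 1.37) on day 4. In plasma-gate cells the Tnfrsf17 day ratio was 0.290 in controls and 1.79 in KO mice, and KO over control was 0.380 on day 0 and 2.35 on day 4. The KO day 4 level rested on few cells, 1 of which held 20 of its 34 UMIs. By clusters, with only 28 cells in the plasma cluster, the day ratio in KO mice was 0.535 and KO over control on day 4 was 0.578. The latter was 1.25 in the gate without the top cell of each pool. With 1 pool per group, none of these differences between days or genotypes was tested, and the pairs of ratios share pools.

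Receptor transcripts were also found in cells outside the B lineage. T lineage cells of the T library held Tnfrsf13b at 32.7 CPM (31.0 to 34.4) and Tnfrsf13c at 0.396 (0.231 to 0.634), both above the floor of 3 counts, 0.0698 CPM. Lyz2 cells of the B library without a Cd79a UMI held Tnfrsf13b at 76.6 CPM (60.7 to 95.5).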

How the results depend on the processing

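Of 274 values of 35 receptor ratios under 11 other settings, 238 moved by less than the counting interval, 34 moved by more and 2 turned, and 259 stayed on the same side of 1. The cause of each move was not tested. The plasma cluster held 28 cells, and 26 cells of the plasma gate were in the germinal center cluster. Leiden clusters turned the Tnfrsf17 ratios in plasma cells of KO over control on day 4 (0.578) and of day 4 over day 0 in KO mice (0.535), and gave 0.620 for that day ratio in controls. They also gave ratios to follicular cells for Tnfrsf13c of 1.61 in transitional, 0.974 in activated, 0.690 in germinal center and 0.154 in plasma cells, for Tnfrsf13b of 0.882 in activated cells, and a Tnfrsf13c day ratio in control follicular cells of 0.715. Without immunoglobulin genes the plasma ratios were 0.452 for Tnfrsf13c, 0.670 for Tnfrsf13b and, with follicular cells set at the floor, 261 for Tnfrsf17. As means over cells, Tnfrsf13c was 0.888 in activated over follicular cells and 0.808 between days in control B lineage cells, and Tnfrsf17 was 1.20 for KO over control plasma cells of day 4. Without the top cell of each sum the last was 1.25, and Tnfrsf17 in plasma over follicular cells at the floor was 155-fold.

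Gates applied after thinning held 1037 follicular and 14 to 57 B1, transitional, marginal zone, germinal center or activated cells. For the ratios the plasma gate was kept as at full depth, and its cells were left out of the other gates. Tnfrsf13c ratios to follicular cells were 0.732 in marginal zone, 0.870 in B1, 0.964 in activated and 1.95 in germinal center cells. Tnfrsf13b ratios were 1.83 in transitional, 0.802 in marginal zone, 1.38 in B1 and 0.750 in germinal center cells. Tnfrsf17 in plasma over follicular cells at the floor was 93.1-fold. In follicular cells the gates after thinning gave day ratios of 0.968 for Tnfrsf13c in controls and 0.791 for Tnfrsf13b in KO mice. KO over control ratios on day 0 were 1.12 for Tnfrsf13c and 1.17 for Tnfrsf13b. In activated cells of day 4 KO over control was 1.14 for Tnfrsf13c and 0.737 for Tnfrsf13b. With Jchain minimums of 10, 50 and 100, Tnfrsf13c in plasma over follicular cells was 0.440, 0.224 and 0.219. Tnfrsf17 over follicular cells at the floor was 274-fold with the last. The minimum of 100, the UMIs of Tnfrsf13c per Tnfrsf13b UMI by cluster or after thinning, and the count over both sums together, wherever given, were chosen after seeing the data.

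The share of all genes past 1.5-fold with at least 100 UMIs in both sums was 5.68% in controls and 2.76% in KO mice between days, 1.17% and 1.36% between genotypes on day 0 and day 4, 1.82% and 1.39% between days in follicular cells of control and KO mice, and 5.32% in activated over follicular cells. With 20 UMIs over both sums together it was 10.3% in KO mice between days, 7.99% and 7.29% between genotypes, 11.3% and 8.92% between days in follicular cells, 29.5% in transitional and 30.9% in B1 over follicular cells. Depth limits the germinal center, B1, transitional and plasma values by pool, which rest on few cells. No paired analysis was possible because each group was 1 pool.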
